A study of Mus musculus with 4 samples.

Results

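The genes of the immunoproteasome and of peptide loading followed here are 10 in number: Psmb8, Psmb9, Psmb10, Psme1, Psme2, Tap1, Tap2, Tapbp, Tapbpl and Erap1. They were chosen by name, as the interferon-inducible proteasome subunits, the proteasome activator PA28, the TAP transporter, the tapasins and a trimming peptidase. Earlier results of these data were known when they were chosen. All 10 were found among the 54532 genes of the deposited table and all 10 passed the filter for testing, a mean of at least 1 FPKM. FPKM scales the fragments of a gene to its length and to library size. The libraries were RNA sequencing of cultured cells labelled MSCs, obtained by digesting mouse bone marrow of the hybrid strain CB6F1, and their titles carry the term aGVHD. In 2 libraries the cells had been given an agent that the labels call only R, at 0.5 µM (written "um" there), and in 2 libraries DMSO, the vehicle. The labels give no time or animal age. Whether the replicates are separate animals or separate cultures is not stated, and p-values cover only the spread between these libraries, which may be technical.

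Cells cut their own proteins into peptides with the proteasome and show a sample of these on MHC class I molecules to CD8 T cells. Interferons replace the catalytic subunits Psmb6, Psmb7 and Psmb5 of the 20S core with Psmb9, Psmb10 and Psmb8, which gives the immunoproteasome, and raise PA28, a ring of Psme1 and Psme2 that caps the core. Tap1 and Tap2 form the pump that carries peptides into the endoplasmic reticulum. There tapasin (Tapbp) and its relative Tapbpl edit the peptides that class I molecules hold, and Erap1 trims their ends.

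The cells carried macrophage as well as stromal transcripts. None of the 27 macrophage and monocyte markers was at 0 in any library. Their summed level was 17479 and 13529.8 FPKM in R libraries, against 25715 and 23045 FPKM in vehicle libraries. Of these sums Lyz2 alone gave 8891 and 7061 FPKM in R, against 14569 and 12540 FPKM in vehicle. The sum of 20 stromal markers was 4604 and 4643 FPKM in R, against 3636 and 3599 FPKM in vehicle. The log2 fold change, R minus vehicle, was above 0 in 14 of 18 tested stromal markers and below 0 in 4. Of these 18, 0 were called higher and 2, Lum and Dcn, lower in R (limma, Benjamini-Hochberg adjusted p under 0.05). Over all genes tested these shares were 0.345% and 1.37%. The stromal markers Cxcl12 and Col1a1 were abundant, while Lepr and Thy1 stayed under 1 FPKM in every library. The medians of the dendritic cell, B cell, T and NK cell, neutrophil and erythroid lists were at most 0.142 FPKM in every library. Markers averaging at least 1 FPKM were 0 of 9 dendritic cell and 2 of 6 B cell markers. They were 1 of 10 T and NK cell, 1 of 10 neutrophil and 1 of 8 erythroid markers. Highest were Ighm (10.3 to 13.8 FPKM) and Cd4 (6.35 to 8.14 FPKM). The endothelial medians were 0.570 to 0.673 FPKM, and 2 of 8 endothelial markers averaged at least 1 FPKM. Sums of unlike genes do not give shares of cell types, and in such bulk samples fewer cells of a type and less RNA per cell cannot be told apart. All FPKM values of R replicate 2 summed to 287360, the smallest total, while the remaining totals ran between 333130 and 345709.

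The promoters of the genes are shown because the genes are known as a group induced by interferon. RefSeq windows (GRCm38.p6), from 250 bases before the annotated start to 50 after it, were matched for 8 of the 10 genes; Tap2 and Tapbpl had no entry. Both strands were searched for the interferon-stimulated response element (ISRE), read as 2 runs of GAAA with any 2 bases between them, for the gamma-activated sequence (GAS) TTCNNNGAA, which reads the same on either strand, and for the NF-kB motif. The ISRE was present in 2 of the 8 genes, Psme1 and Erap1, and in 3.99% of all 27025 genes with windows (3.44% of 32851 windows). The GAS element was present in 1 of the 8, Psmb8, and in 9.55% of all genes (8.3% of windows). The NF-kB motif was in 0 of the 8 and in 9.55% of all genes (8.46% of windows). The windows of Psmb9 and Tap1 share 275 of their 300 bases, so nearly the same stretch was searched for both. In the windows of Psmb5 and Psmb6 none of the 3 motifs was found, and Psmb7 had no entry. A match describes letters and is not evidence of binding. Capitals mark the ISRE, on the opposite strand, in these windows:
Psme1, chr14:55578244-55578543, + strand: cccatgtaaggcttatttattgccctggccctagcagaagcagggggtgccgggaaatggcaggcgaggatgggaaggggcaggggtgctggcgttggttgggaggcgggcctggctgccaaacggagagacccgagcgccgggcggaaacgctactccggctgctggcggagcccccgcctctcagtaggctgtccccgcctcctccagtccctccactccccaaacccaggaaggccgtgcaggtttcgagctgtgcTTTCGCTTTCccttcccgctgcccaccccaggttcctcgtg
Erap1, chr13:74639603-74639902, + strand: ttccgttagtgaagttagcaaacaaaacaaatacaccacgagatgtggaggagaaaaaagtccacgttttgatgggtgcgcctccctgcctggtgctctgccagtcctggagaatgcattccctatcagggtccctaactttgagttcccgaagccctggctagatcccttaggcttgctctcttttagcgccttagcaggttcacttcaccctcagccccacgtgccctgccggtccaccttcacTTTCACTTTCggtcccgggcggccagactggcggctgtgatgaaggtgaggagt
Capitals mark the GAS element in this window:
Psmb8, chr17:34197945-34198244, + strand: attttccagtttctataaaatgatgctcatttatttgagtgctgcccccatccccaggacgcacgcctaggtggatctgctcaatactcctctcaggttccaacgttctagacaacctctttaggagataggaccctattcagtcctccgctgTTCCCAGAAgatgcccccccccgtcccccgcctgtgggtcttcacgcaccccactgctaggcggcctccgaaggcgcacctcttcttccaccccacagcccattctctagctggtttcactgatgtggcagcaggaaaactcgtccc
Tap1 and Psmb9 are read in opposite directions from one stretch, and capitals here mark the 225 bases that lie between their RefSeq starts:
Tap1, chr17:34187306-34187605, + strand: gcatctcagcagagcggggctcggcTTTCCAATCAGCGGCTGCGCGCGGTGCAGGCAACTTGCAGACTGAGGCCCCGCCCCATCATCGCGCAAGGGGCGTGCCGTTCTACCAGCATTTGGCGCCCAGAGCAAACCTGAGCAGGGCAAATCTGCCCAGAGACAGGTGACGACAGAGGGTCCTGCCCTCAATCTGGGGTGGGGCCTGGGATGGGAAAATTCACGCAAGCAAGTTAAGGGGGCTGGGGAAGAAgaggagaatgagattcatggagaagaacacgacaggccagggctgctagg
In Erap1 the ISRE covered bases 247 to 256 of the window and so spanned the annotated start at base 251. In Psme1 it lay just after the start, at bases 260 to 269. The GAS element of Psmb8 lay at bases 154 to 162. All these starts are those of RefSeq. In the GENCODE M21 annotation used below, Psmb8, Psme1 and Erap1 begin before their windows, and Psmb9 and Tap1 overlap.

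The comparison of R with vehicle asked how these transcripts respond to the agent. Because earlier results of these data were known when the genes were chosen, the counts below are descriptions and not an independent test. The log2 fold change, R minus vehicle, was below 0 in all 10 genes and its median was -0.47. It was taken on log2(FPKM + 1), which understates changes of low values. Of all 12176 genes tested, 50% had fold changes below 0 and the median was 0.00. None of the 10 passed the test (limma, Benjamini-Hochberg adjusted p under 0.05 over all genes tested), a threshold that 1.37% of all genes passed as lower in R and 0.345% as higher. At an unadjusted p under 0.05, 5 of the 10 were lower in R, and 0 were higher, against 8.83% and 7.16% of all genes, and voom on recovered reads also called 0. In 7 of the 10 both R libraries lay below both vehicle libraries, against 25.2% of all genes, and in 0 of the 10 both lay above, against 22.7%. These 7 were Psmb9, Psmb10, Psme1, Tap1, Tapbp, Tapbpl and Erap1, and Psmb8, Psme2 and Tap2 overlapped.

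**Figure D1:**
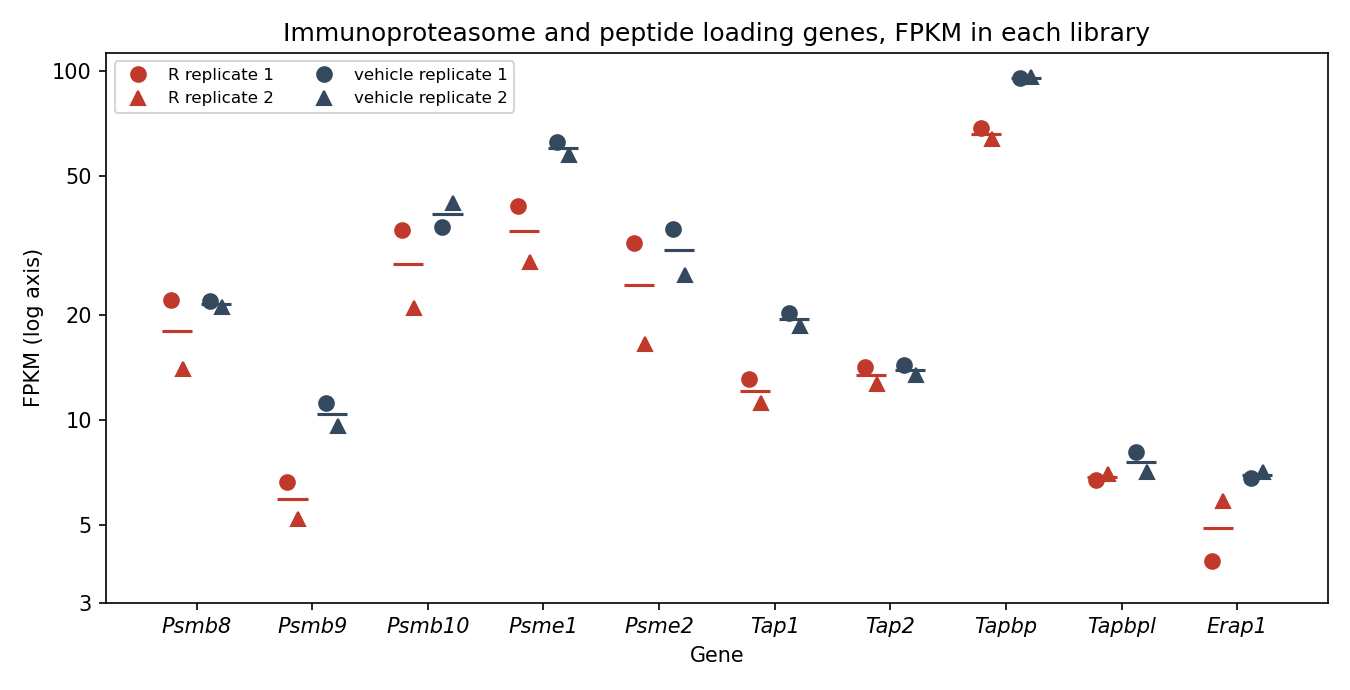
FPKM (log axis) of each gene in R (red, left) and vehicle (dark, right), with circles for replicate 1, triangles for replicate 2 and lines for group means. Both R points lie below both vehicle points in 7 of the 10 genes; Psmb8, Psme2 and Tap2 overlap.

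The immunoproteasome subunits did not share one pattern over the libraries. Psmb9, which takes the place of Psmb6, was at 6.66 and 5.20 FPKM in R libraries, against 11.2 and 9.63 FPKM in vehicle libraries. The mean was 5.93 ± 1.03 FPKM (SD, n = 2) in R, against 10.4 ± 1.09 FPKM (SD, n = 2) in vehicle, or 43.0% lower in R, and the groups did not overlap. Its log2 fold change was -0.72 (SE 0.16; limma, Benjamini-Hochberg adjusted p = 0.097). Psmb10, which takes the place of Psmb7, was at 35.0 and 20.9 FPKM in R, against 35.7 and 41.8 FPKM in vehicle. R replicate 1 lay just under the lower vehicle library, so only R replicate 2 stood clearly apart. Its log2 fold change was -0.50 (SE 0.25; limma, Benjamini-Hochberg adjusted p = 0.402), with -0.85 without R replicate 1 and -0.14 without R replicate 2. Psmb8, which takes the place of Psmb5, was at 22.03 and 14.0 FPKM in R, against 21.8 and 21.04 FPKM in vehicle. R replicate 1 was the highest of the 4 libraries and R replicate 2 the lowest. The log2 fold change was -0.27 (SE 0.21; limma, Benjamini-Hochberg adjusted p = 0.605).

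In the GRCm38 annotation of GENCODE M21, Psmb9 (ENSMUSG00000096727), Tap1 (ENSMUSG00000037321), Psmb8 (ENSMUSG00000024338) and Tap2 (ENSMUSG00000024339) lie next to each other in the MHC region of chromosome 17. Psmb9 spans positions 34181987 to 34187764 and Tap1 positions 34187553 to 34197225. Psmb8 spans 34197721 to 34201454 and Tap2 spans 34203527 to 34216321. The exons of Psmb9 and Tap1 share 212 bases on opposite strands, so without stranded counting, which is not given in the sources used here, a few reads could count for either. Tapbp (ENSMUSG00000024308) lies on the same chromosome at 33915899 to 33929292. Psmb10 (ENSMUSG00000031897) lies on chromosome 8 at 105935735 to 105938444, Tapbpl (ENSMUSG00000038213) on chromosome 6 at 125223933 to 125231860, and Erap1 (ENSMUSG00000021583) on chromosome 13 at 74639568 to 74693201.

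PA28 is built from Psme1 and Psme2, which lie close together on chromosome 14 with Emc9 between them. Psme1 (ENSMUSG00000022216, 55578123 to 55581529) was at 41.0 and 28.3 FPKM in R libraries, against 62.4 and 57.4 FPKM in vehicle libraries. The mean was 34.7 ± 8.98 FPKM (SD, n = 2) in R, against 59.9 ± 3.53 FPKM (SD, n = 2) in vehicle, or 42.2% lower in R, and both R libraries lay below both vehicle libraries. Its log2 fold change, -0.79 (SE 0.20), was the most negative of the 10 on this scale but missed the threshold (limma, Benjamini-Hochberg adjusted p = 0.128). With voom Psmb9 was lower, at -0.82 against -0.81 for Psme1. Psme2 (ENSMUSG00000079197, 55587441 to 55591113) was at 32.1 and 16.5 FPKM in R, against 35.2 and 26.0 FPKM in vehicle. The groups overlapped, and the log2 fold change was -0.38 (SE 0.32; limma, Benjamini-Hochberg adjusted p = 0.63). Psme2 has a single-exon copy, Psme2b, on chromosome 11, so reads could be split between them and the value of Psme2 is uncertain. Psme2b was at 37.9 and 40.7 FPKM in R, against 41.2 and 56.1 FPKM in vehicle. Psme3, which forms a separate nuclear activator, was at 29.0 and 31.6 FPKM in R, against 33.6 and 31.1 FPKM in vehicle, and these groups overlapped.

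Both parts of the peptide pump were measured, with unlike values. Tap1 was at 13.1 and 11.2 FPKM in R libraries, against 20.3 and 18.6 FPKM in vehicle libraries. The mean was 12.1 ± 1.37 FPKM (SD, n = 2) in R, against 19.4 ± 1.21 FPKM (SD, n = 2) in vehicle, or 37.5% lower in R, without overlap. Its log2 fold change was -0.64 (SE 0.13), with the smallest p of the 10 genes (limma, Benjamini-Hochberg adjusted p = 0.0926). Tap2 was at 14.1 and 12.7 FPKM in R, against 14.4 and 13.4 FPKM in vehicle. The groups overlapped, and the log2 fold change was -0.05 (SE 0.12; limma, Benjamini-Hochberg adjusted p = 0.886). Rescaled to TPM it was 0.08, on a scale where the median of all genes moved to 0.13.

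Of the tapasins, Tapbp, the bridge between TAP and class I molecules, was at 68.4 and 63.7 FPKM in R libraries, against 95.1 and 95.7 FPKM in vehicle libraries. The mean was 66.0 ± 3.36 FPKM (SD, n = 2) in R, against 95.4 ± 0.464 FPKM (SD, n = 2) in vehicle, or 30.8% lower in R, and the libraries within a group lay close together. Its log2 fold change was -0.53 (SE 0.13; limma, Benjamini-Hochberg adjusted p = 0.126). Tapbpl, which works outside the TAP complex, was at 6.72 and 7.004 FPKM in R, against 8.10 and 7.09 FPKM in vehicle. The gap between the groups was smaller than the spread within vehicle, and the log2 fold change was -0.13 (SE 0.12; limma, Benjamini-Hochberg adjusted p = 0.689). Erap1 was at 3.94 and 5.85 FPKM in R, against 6.83 and 7.08 FPKM in vehicle. Here R replicate 1, not replicate 2, was the lowest library, and the log2 fold change was -0.45 (SE 0.18; limma, Benjamini-Hochberg adjusted p = 0.306). It was -0.21 without R replicate 1 and -0.69 without R replicate 2. The exons of Erap1 overlap those of Cast, on the opposite strand, over 834 bases, or 11.5% of the exon length of Erap1. Cast was at 10.2 and 11.9 FPKM in R, against 10.4 and 11.3 FPKM in vehicle.

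**Figure D2:**
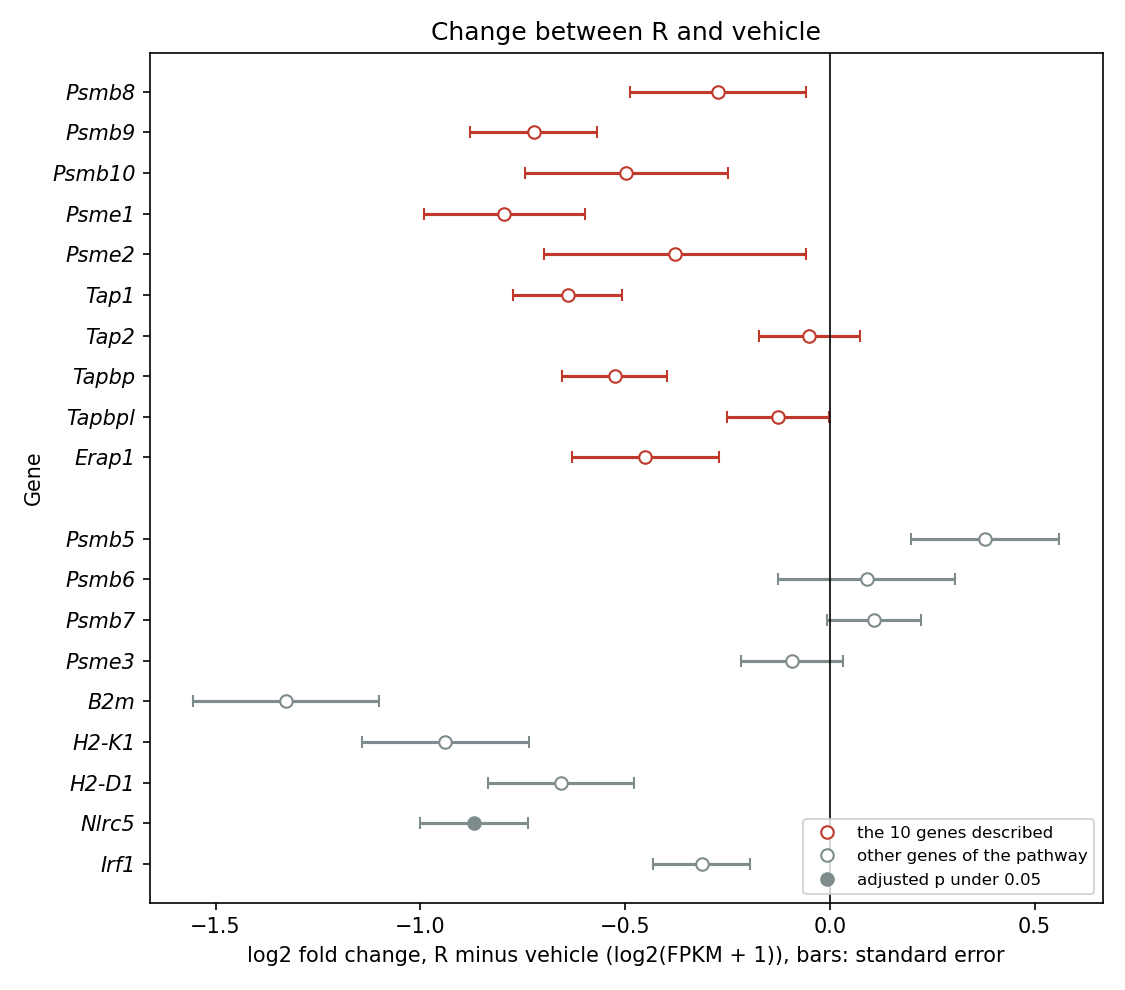
Log2 fold changes, R minus vehicle, with standard errors from limma, for the 10 genes (red, upper block) and other genes of the pathway (grey, lower block); filled points passed at an adjusted p under 0.05. All red points lie left of 0, from -0.79 for Psme1 to -0.05 for Tap2, and none is filled, while Nlrc5 is.

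The order of the levels, per length, was much alike in the groups. In R Tapbp was highest, followed by Psme1, Psmb10, Psme2, Psmb8, Tap2, Tap1, Tapbpl, Psmb9 and Erap1. From Psme1 down to Tap1 each gene overlapped the next in R, as did Psmb9 and Erap1. In vehicle the order was Tapbp, Psme1, Psmb10, Psme2, Psmb8, Tap1, Tap2, Psmb9, Tapbpl and Erap1, and no neighbours in this order overlapped. Tap1 thus stood below Tap2 in R and above it in vehicle, and Psmb9 stood below Tapbpl in R and above it in vehicle.

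Each inducible subunit can be set against the constitutive subunit it replaces, as a ratio within a library that does not depend on scaling between libraries. Partners differ in exon length, most of all Psmb8 (3381 bases in GENCODE M21) and Psmb5 (899). The lengths were 3660 bases for Psmb9 and 1872 for Psmb6, and 1705 for Psmb10 and 3421 for Psmb7. The gene length trend given below can thus still enter a ratio. No ratio with that trend removed was computed. The ratio of Psmb8 to Psmb5 was 0.207 and 0.176 in R libraries, against 0.294 and 0.314 in vehicle libraries. That of Psmb9 to Psmb6 was 0.0836 and 0.0998 in R, against 0.180 and 0.164 in vehicle. For Psmb10 to Psmb7 it was 2.18 and 1.33 in R, against 2.49 and 2.79 in vehicle, and without R replicate 2 its difference shrank to -0.27 on the log2 scale. In each of these 3 pairs both R libraries lay below both vehicle libraries. How often this holds for other pairs of genes was not computed. The differences in log2 ratio were -0.67 (SE 0.12), -0.91 (SE 0.14) and -0.63 (SE 0.36), or 0.627, 0.532 and 0.647 times the vehicle ratio. The exact two-sided permutation test gave p = 0.333 for each of the 3, also after Benjamini-Hochberg adjustment, which is the smallest p that 2 against 2 libraries allow. With all 4 libraries the constitutive subunits themselves did not pass the test. Psmb5 was at 106.6 and 79.3 FPKM in R, against 74.2 and 67.0 FPKM in vehicle, with a log2 fold change of 0.38 (limma, Benjamini-Hochberg adjusted p = 0.382). This was 0.17 without R replicate 1 (limma adjusted p = 0.337) and 0.59 without R replicate 2 (limma adjusted p = 0.0436). Psmb6 and Psmb7 had log2 fold changes of 0.09 and 0.11, and that of Psmb6 was -0.21 without R replicate 1. Psmb8 thus overlapped between the groups as a level but not as a ratio to Psmb5. The log2 fold change of Psmb8 was -0.27 and that of Psmb5 was 0.38, so the denominator gave the larger part of this difference in ratio. For Psmb5 and Psmb7, but not Psmb6, both R libraries lay above both vehicle libraries, against 22.7% of all genes. The level of a ratio rests on the authors' gene lengths, which for Psmb8 and Psmb9 are not those of GENCODE M21, and a ratio of FPKM is not a ratio of proteins.

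Ratios of partners within one complex were described in the same way. Tap1 to Tap2 was 0.928 and 0.881 in R libraries, against 1.41 and 1.38 in vehicle libraries. The difference in log2 ratio was -0.63 (SE 0.04), and the libraries within a group were close. Psme1 to Psme2 was 1.28 and 1.72 in R, against 1.77 and 2.21 in vehicle, with the reads of Psme2 uncertain as above.

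**Figure D3:**
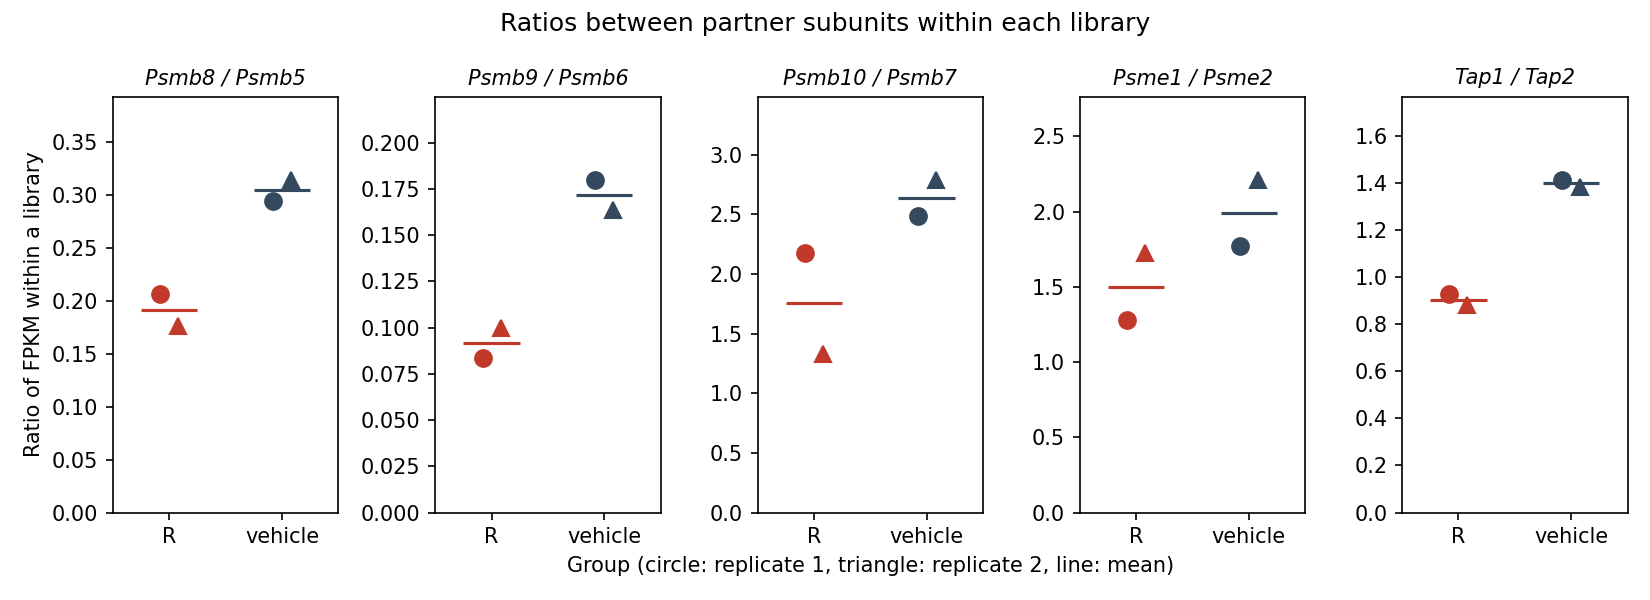
Ratio of FPKM between subunits within each library (vertical axes from 0, a separate scale per panel), R left in red and vehicle right in dark, with circles for replicate 1, triangles for replicate 2 and lines for means. In all 5 panels both R points lie below both vehicle points (for Tap1 to Tap2, 0.928 and 0.881 in R, 1.41 and 1.38 in vehicle). For Psme1 to Psme2 the gap is narrow, with 1.72 in R replicate 2 and 1.77 in vehicle replicate 1. The share of other gene pairs that separate in this way was not computed.

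The rest of the proteasome was read from lists, and limma with Benjamini-Hochberg adjustment called 0 of its genes in either direction. Among the other 20S core subunits 12 were tested, with a median log2 fold change of -0.15, and 10 were below 0. The member with the smallest p was Psmb2, a structural beta subunit, at 81.4 and 62.0 FPKM in R libraries, against 102.3 and 85.9 FPKM in vehicle libraries (limma, Benjamini-Hochberg adjusted p = 0.372). The thymus-specific subunit Psmb11 was listed at 0 in all libraries except vehicle replicate 2. The 19S particle, which unfolds substrates, had 13 of 19 genes below 0 and a median of -0.08. Its member with the smallest p was the ATPase Psmc6, with a log2 fold change of -0.35 (limma, Benjamini-Hochberg adjusted p = 0.254). The 11 other activators and assembly factors had a median of -0.09, and Psmg1, an assembly chaperone, had the smallest p at a log2 fold change of 0.28 (limma, Benjamini-Hochberg adjusted p = 0.407). At an unadjusted p under 0.05 there were 0 genes in these lists beside Psmc6.

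Folding and trimming factors shared with other pathways had medians near 0. The 7 tested factors of the endoplasmic reticulum, among them Calr, Canx and Pdia3, had a median log2 fold change of 0.07 and 0 calls, with 0 at an unadjusted p under 0.05 in limma. Uggt1, which checks glycoprotein folding, had the smallest p at a log2 fold change of 0.21. Of the 8 tested cytosolic peptidases 0 were called, with 0 at an unadjusted p under 0.05 in limma, and the median was -0.01. Lap3, an aminopeptidase, had the smallest p, at 21.6 and 23.3 FPKM in R libraries, against 19.1 and 18.5 FPKM in vehicle libraries.

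The class I chains and regulators were the list with called genes. Of 9 tested genes, 8 had log2 fold changes below 0, and the median was -0.66. Limma called 2 of the 9 lower and 0 higher, against 1.37% and 0.345% of all genes. At an unadjusted p under 0.05 in limma 6 were lower, against 8.83% of all genes. Nlrc5, which activates class I genes and known partners such as Tap1 and Psmb9, fell to 2.04 and 2.40 FPKM in R, against 4.87 and 4.88 FPKM in vehicle (log2 fold change -0.87, SE 0.13; limma, Benjamini-Hochberg adjusted p = 0.0443). The limma adjusted p of Nlrc5 was 0.0677 without vehicle replicate 1, 0.0527 without vehicle replicate 2, 0.108 on the TPM scale and 0.189 without a filter on low values. Irf1, another activator of these promoters, was at 9.41 and 9.65 FPKM in R, against 12.7 and 11.5 FPKM in vehicle, and did not pass the test. B2m, the light chain, was at 1226 and 1091 FPKM in R, against 3199.5 and 2634 FPKM in vehicle, with a log2 fold change of -1.33 (limma, Benjamini-Hochberg adjusted p = 0.056). Its adjusted p was under 0.05 in 9 of the 14 alternatives, among them voom and the fits without R replicate 1 or 2. The heavy chains H2-K1 and H2-D1, whose reads could be split among near-identical copies, were at log2 fold changes of -0.94 and -0.66, neither of them called with all 4 libraries. The adjusted p was under 0.05 in 6 of the 14 alternatives for H2-K1, voom and the fits without R replicate 1 or 2 included, and in 3 of the 14 for H2-D1, the fit without R replicate 1 included.

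**Figure D4:**
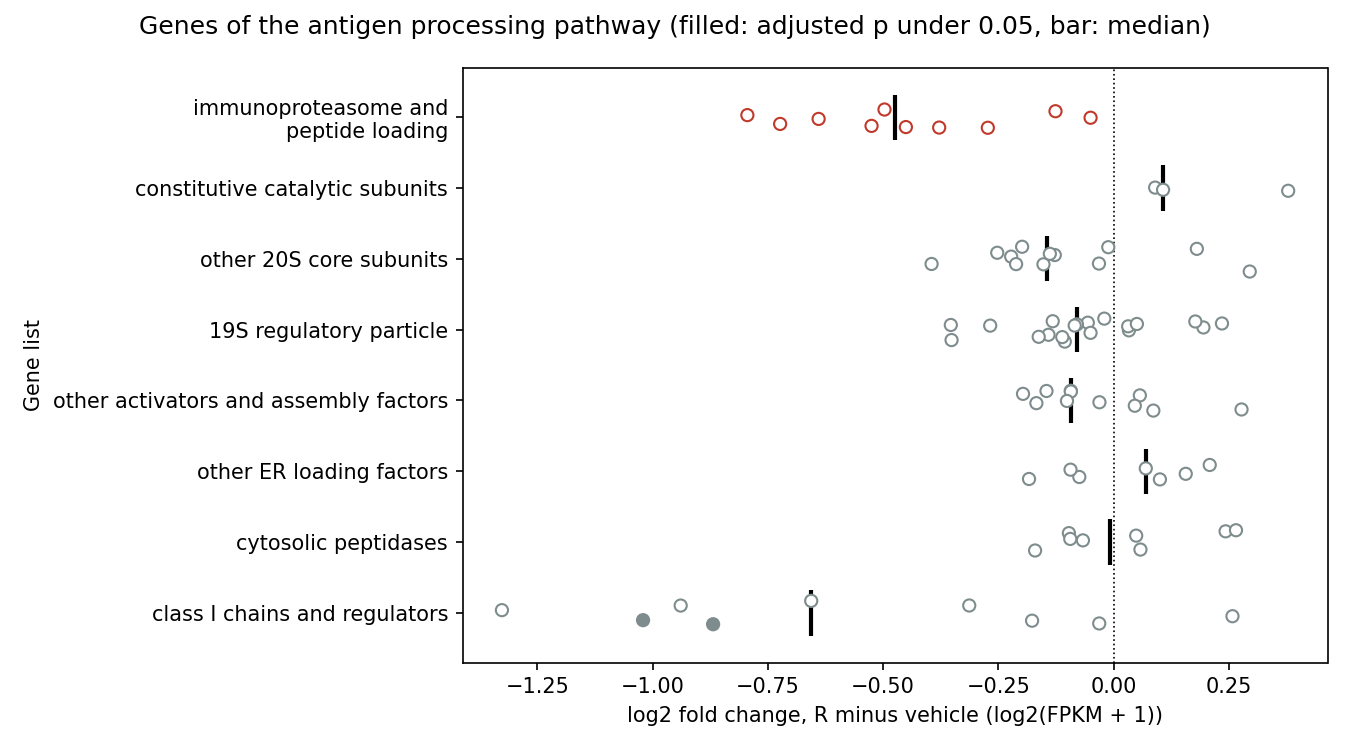
Log2 fold changes, R minus vehicle, of the tested genes of each list (one point per gene, spread vertically for legibility; black bar, median; filled, adjusted p under 0.05). The 10 genes have a median of -0.47, the other proteasome and folding lists have medians from -0.15 to 0.11, and the class I list has a median of -0.66.

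The surroundings of the genes were compared by distance. Within 50 kb of the 10 genes lay 65 other annotated genes, of which 29 were tested. Their median log2 fold change was 0.02 and 14 were below 0. Limma called 1 of the 29, against 1.72% of all genes called in either direction. This was Irf9, which is named because it was the gene called. Irf9, the DNA-binding part of the interferon-activated complex ISGF3, lies on chromosome 14 at 55603571 to 55610030, with Rnf31 between it and Psme2. It fell to 3.31 and 3.02 FPKM in R libraries, against 12.1 and 10.3 FPKM in vehicle libraries (log2 fold change -1.55; limma, Benjamini-Hochberg adjusted p = 0.0075, and 0.0992 without a filter on low values). By the distance between centred log2(FPKM + 1) values over the 4 libraries, the 5 genes most like the mean of the 10 included Mrpl45, Ptpn6, Ucp2 and Fam234a, among 7175 protein-coding genes that averaged 5 FPKM or more. The root mean square distances of these 4 were 0.0179 to 0.0227, and with 4 libraries such likeness is only a description.

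Spread was wider within R than within vehicle for most of the genes, and its direction depended on the gene. R replicate 1 was above R replicate 2 in 8 of the 10 genes. The ratio of replicate 1 to replicate 2 was 1.95 for Psme2, 1.67 for Psmb10, 1.58 for Psmb8 and 1.45 for Psme1, and it was 0.674 for Erap1. In vehicle the ratio lay between 0.853 for Psmb10 and 1.36 for Psme2. Across the 10 genes Spearman's rho between the log2 ratio of the R libraries and exon length was -0.697, a description over genes that share these libraries. Over all tested genes the deviation of R replicate 1 from the mean of the 4 libraries had a rho of -0.361 with gene length, and that of R replicate 2 a rho of 0.437. In vehicle the rho was -0.247 for replicate 1 and 0.148 for replicate 2. Genes shorter than 1 kb had a median log2 deviation of 0.105 and -0.164 in R replicates 1 and 2, and of 0.108 and -0.04 in vehicle replicates 1 and 2.

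Calls among the 10 genes changed with these libraries. With the gene length trend removed, limma called 3 of the 10 lower, Psmb9, Psme1 and Tapbp, where 2.72% of all genes were called lower. Without R replicate 1 it called 6, the same 3 with Psmb8, Psmb10 and Tap1, against 5.46% of all genes. Without R replicate 2 it called 3, Psme1, Tapbp and Erap1, against 3.37% of all genes. Leaving out vehicle replicate 1 or 2 gave 0 calls among the 10, against 1.59% and 2.13% of all genes. There were also 0 with a pseudocount of 0.1 or 0.5 (1.37% and 1.35% of all genes), without a filter (0%) and with a minimum of 5 FPKM (2.18%). The same held on the TPM scale (1.02%), after quantile normalization (1.52%), without the variance trend (1.34%) and with voom (1.98%). Psme1 and Tapbp were thus called with the length trend removed, without R replicate 1 and without R replicate 2, while Psmb8 had a log2 fold change of -0.58 without R replicate 1 and of 0.04 without R replicate 2. Fits on 3 libraries leave 1 group with a single library, which is assumed to vary like the other group. In the fit on all 4 libraries, 25 of 26 tested macrophage markers were also below 0, with a median log2 fold change of -0.59. They ran from -1.90 for Fcgr1 to 0.23 for Cx3cr1, and 5 were called lower, against 1.37% of all genes. The part of the macrophage markers in the results for the 10 genes was not tested.

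**Figure D5:**
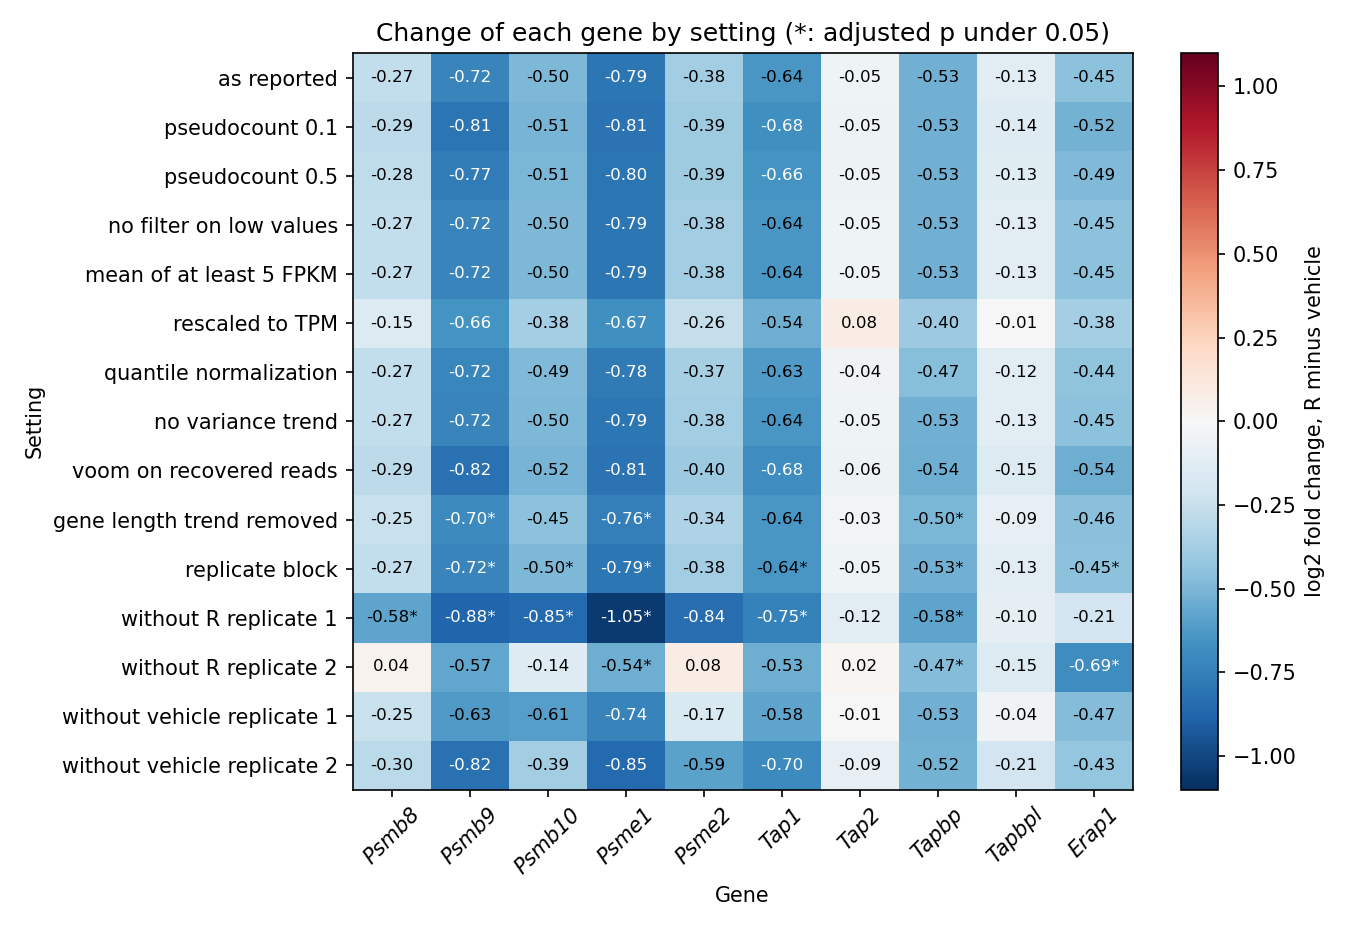
Log2 fold change, R minus vehicle, of each gene (columns) as reported and under each of 14 other settings (rows), as numbers and colour; an asterisk marks an adjusted p under 0.05. Psmb9, Psme1, Tap1 and Tapbp are below -0.39 in every row, while Psmb8, Psme2 and Tap2 turn above 0 without R replicate 2.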

How the data were processed

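Total RNA from 4 libraries of mouse cells was sequenced. The deposited table gives FPKM values, made by the authors, for 54532 genes, 1 column per library, per the file headers; 10 empty columns were not used. The builds GRCm38 and mm10, and edgeR 3.18.1 in a role not stated, are named per the submitters' processing notes; the sources used here do not give the aligner, counting tool, strand setting, annotation or filters. Symbols, coordinates and union exon lengths came from GENCODE M21 (GRCm38), which matched 54495 identifiers. FPKM times length gave whole reads, within 0.02, for 96.5 to 96.6% of values above 0 and up to 5000 reads, or 18091297 to 19940951 reads per library. Psmb8, Psmb9 and Tapbp did not give whole reads at the M21 lengths, so the authors' lengths differ there. The nearest lengths that gave whole reads were 3659 bases for Psmb9 (3660 in M21), 2736 for Psmb8 (3381) and 3296 for Tapbp (3628). The levels of these genes relative to others are less certain, mainly those of Psmb8 and Tapbp. The other 7 genes had 298 to 2433 reads per library. Reads are not independent molecules.

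Groups followed the sample titles. Values were analysed as log2(FPKM + 1) in limma 3.58.1 under R 4.3.3, with group as the only term, a variance trend (eBayes) and Benjamini-Hochberg adjustment over the 12176 genes averaging 1 FPKM or more, at 0.05. Residual degrees of freedom were 2 and prior ones 3.83. The scripts were tested on simulated data. The 10 genes, the lists and the tests were chosen with earlier results of these data known. The 10 genes, the constitutive subunits and B2m, H2-K1, H2-D1, Nlrc5, Irf1 and Psme3 were always named; other listed genes were named if called or, where a list had no call, if they had its smallest p. Alternatives changed the pseudocount (0.1, 0.5), the filter (none, 5 FPKM), the scaling (TPM, quantile), the variance trend, voom with TMM scaling on recovered reads, the gene length trend (loess), a replicate block, and each library left out. A few genes that these rules select are not reported here by name. Protein sequences were not used here.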

Additional observations from a re-analysis of the deposited data

How the results depend on the processing

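The 10 genes as a whole had 0 calls in limma with a pseudocount of 0.1 or 0.5, without a filter, with a minimum of 5 FPKM, on the TPM scale, after quantile normalization, without the variance trend and with voom. They had 3 with the gene length trend removed and 0 to 6 when 1 library was left out. With 1 library left out, log2 fold changes ran from -0.58 (without R replicate 1) to 0.037 (without R replicate 2) for Psmb8, from -0.84 to 0.084 for Psme2, from -0.12 to 0.022 for Tap2, from -0.85 to -0.14 for Psmb10, from -0.69 to -0.21 for Erap1, from 0.17 to 0.59 for Psmb5 and from -0.21 to 0.39 for Psmb6. On the TPM scale, where the median of all genes was 0.13, Tap2 was at 0.079 and Psme3 at 0.038; of the 10 genes, 7 stayed below 0 in all 14 alternatives. Of all genes, 167 were lower and 42 higher as reported. Without a filter there were 0 and 0 (2767 at an unadjusted p under 0.05 in limma), with the length trend removed 331 and 222, with voom 241 and 85, and with 1 library left out 193 to 665 lower and 96 to 438 higher. Of the other listed pathway genes 2 were called as reported, 0 without a filter, 1 with a minimum of 5 FPKM, 4 after quantile normalization, 4 with voom, 5 with the length trend removed, and 1 to 6 with 1 library left out. The cause was not tested. With the replicate number as a block, 6 of the 10 genes, 5 pathway genes, 1009 lower (8.29%) and 891 higher genes were called; same-numbered libraries deviated together with a correlation of 0.353, but the labels do not say that the numbers pair samples. The 3 ratios of inducible to constitutive subunits were lower in R with each library left out and with 1 added to each FPKM, the alternatives run for them, with log2 differences from -0.79 to -0.56 for Psmb8 to Psmb5, -1.04 to -0.78 for Psmb9 to Psmb6 and -0.98 to -0.27 for Psmb10 to Psmb7 when 1 library was left out. Whether depth or the number of libraries limits these comparisons more was not tested.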
